A study of Mus musculus with 24 samples.

Results

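The genes Cd28, Icos, Ctla4, Pdcd1, Lag3, Havcr2, Tigit, Btla, Cd5 and Cd6 encode costimulatory and inhibitory receptors of the T cell surface. They were chosen by name and make up 10 of the 20028 named genes on the arrays. They were covered by 12 probes, since Icos and Cd6 had 2 probes each, and every probe was read on all 24 arrays. RNA levels were measured in CD4+ T cells of female C57BL/6 mice that had been differentiated in vitro to Th1 cells (14 arrays) or Th2 cells (10 arrays). Each array compared 1 sample, labelled with Cy3, with a common reference of naive CD4+CD62L+CD25-CD44lo T cells from lymph nodes and spleens, labelled with Cy5. Th1 cells were taken unstimulated or reactivated after DMSO, the vehicle, or 500 nM JQ1 at 6 hr and at 24 hr, and after 50 nM JQ1 or 1 or 10 µM flavopiridol at 6 hr. Th2 cells were taken unstimulated or reactivated after 50 or 500 nM JQ1 or 1 or 10 µM flavopiridol at 6 hr, and after DMSO, for which the labels give 24 hr in one field and 6 hr in another. Flavopiridol inhibits P-TEFb, the kinase that releases RNA polymerase II into elongation, and JQ1 displaces BET proteins from chromatin, so the arrays ask how far these genes depend on either step. The labels do not give the reactivating stimulus, the age of the mice or whether cells were pooled, every condition was measured on 1 array, and dyes were not swapped.

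A T cell that meets antigen reads a further signal from receptors of this kind. CD28 binds CD80 and CD86 on the antigen-presenting cell and lowers the threshold for activation, and CTLA-4 competes with it for the same ligands. PD-1 (Pdcd1), LAG-3, TIM-3 (Havcr2), TIGIT and BTLA restrain activated cells, and several of them are known for their appearance on stimulated or chronically stimulated T cells, whereas CD5 and CD6, of the scavenger receptor family, set the strength of T cell receptor signals.

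Promoter sequences were found in RefSeq (GRCm38.p6) for 6 of the 10 genes, Ctla4, Pdcd1, Havcr2, Tigit, Btla and Cd5. Shown are the 250 bases before the annotated start, read 5′ to 3′ on the gene's strand, for the 3 genes whose levels rose most on reactivation and for Ctla4, whose level fell. Capitals mark matches on either strand to GGAAA, the core letters of an NFAT site, to TGANTCA, an AP-1 site, or to TCACACC, a T-box half-site.
Pdcd1, chr1:94052554-94052803, minus strand: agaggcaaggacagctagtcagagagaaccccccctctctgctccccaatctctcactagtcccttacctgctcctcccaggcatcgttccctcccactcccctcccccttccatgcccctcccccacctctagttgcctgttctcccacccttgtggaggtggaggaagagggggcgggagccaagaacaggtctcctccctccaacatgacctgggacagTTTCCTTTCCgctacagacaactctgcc
Havcr2, chr11:46454681-46454930, plus strand: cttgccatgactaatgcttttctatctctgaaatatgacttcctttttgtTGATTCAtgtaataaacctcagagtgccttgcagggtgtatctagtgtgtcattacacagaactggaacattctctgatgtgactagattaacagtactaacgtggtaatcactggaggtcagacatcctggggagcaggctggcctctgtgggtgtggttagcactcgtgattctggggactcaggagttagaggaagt
Tigit, chr16:43664185-43664434, minus strand: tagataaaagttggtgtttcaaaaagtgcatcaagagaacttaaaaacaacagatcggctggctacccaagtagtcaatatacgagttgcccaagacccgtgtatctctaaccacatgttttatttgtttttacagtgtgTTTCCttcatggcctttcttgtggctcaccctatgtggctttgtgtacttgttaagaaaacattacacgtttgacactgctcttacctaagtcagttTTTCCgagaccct
Ctla4, chr1:60908775-60909024, plus strand: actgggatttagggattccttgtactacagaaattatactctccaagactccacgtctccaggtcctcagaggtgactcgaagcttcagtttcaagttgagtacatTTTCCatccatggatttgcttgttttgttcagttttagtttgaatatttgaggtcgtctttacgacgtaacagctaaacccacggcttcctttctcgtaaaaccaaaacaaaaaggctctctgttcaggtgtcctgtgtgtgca
GGAAA matched 2 times in the Pdcd1 window, ending 23 and 18 bases before the start, and 2 times in the Tigit window, ending 105 and 8 bases before it. It matched 1 time in that of Ctla4, 139 bases before the start, and not in those of Havcr2, Btla and Cd5. TGANTCA matched in the Havcr2 window alone among the 6, 193 bases before the start. TCACACC matched in none of the 6. Over the 32851 RefSeq promoters of the same length, GGAAA was held by 55.6%, TGANTCA by 6.75% and TCACACC by 3.33%, and no 2 of these matches overlapped in the windows shown.

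The values below are log2 ratios of the sample (Cy3) over naive cells (Cy5) after background correction and loess, so that 1 is a doubling, and a difference between arrays is a difference of such ratios. Changes were tested with limma over all genes whose Cy3 signal passed the scanner's test of signal over background on 3 or more arrays of the fit, and a gene was called at a Benjamini-Hochberg adjusted p below 0.05. Since no condition had a replicate, pairs of arrays from several cell contexts stood in for replicates and the standard errors (SE) give the spread of a change between contexts. By that test 48.8% to 52.0% of probes gave Cy3 signal with DMSO, 43.8% to 51.1% with JQ1 and 35.5% to 41.5% with flavopiridol. The arrays lay on 3 slides. Arrays of a reactivation pair, the DMSO arrays of Th1 cells at 6 hr and of Th2 cells, and JQ1 arrays of Th1 cells with their DMSO arrays shared a slide, but no flavopiridol array and no JQ1 array of Th2 cells shared one with its DMSO control, so that for these drug and slide cannot be told apart within a context. In Th2 cells drug and time cannot be told apart either, for JQ1 or flavopiridol, since the time of the DMSO arrays is unclear. Cd3e, Cd3d, Cd3g and Cd4, the T cell markers, were well above background on all 24 arrays, and the natural killer marker Klrb1c on none. Of the 4 markers of regulatory T cells, which carry CTLA-4, ICOS and TIGIT, Nrp1 was above background on 21 arrays with ratios over naive cells up to 3.56, Foxp3 on 17 with ratios up to 0.56, Ikzf2 on 13 with ratios up to 0.76, and Gpr83 on 1. In whole cultures, fewer cells of a type and less RNA per cell cannot be told apart.

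**Figure D1:**
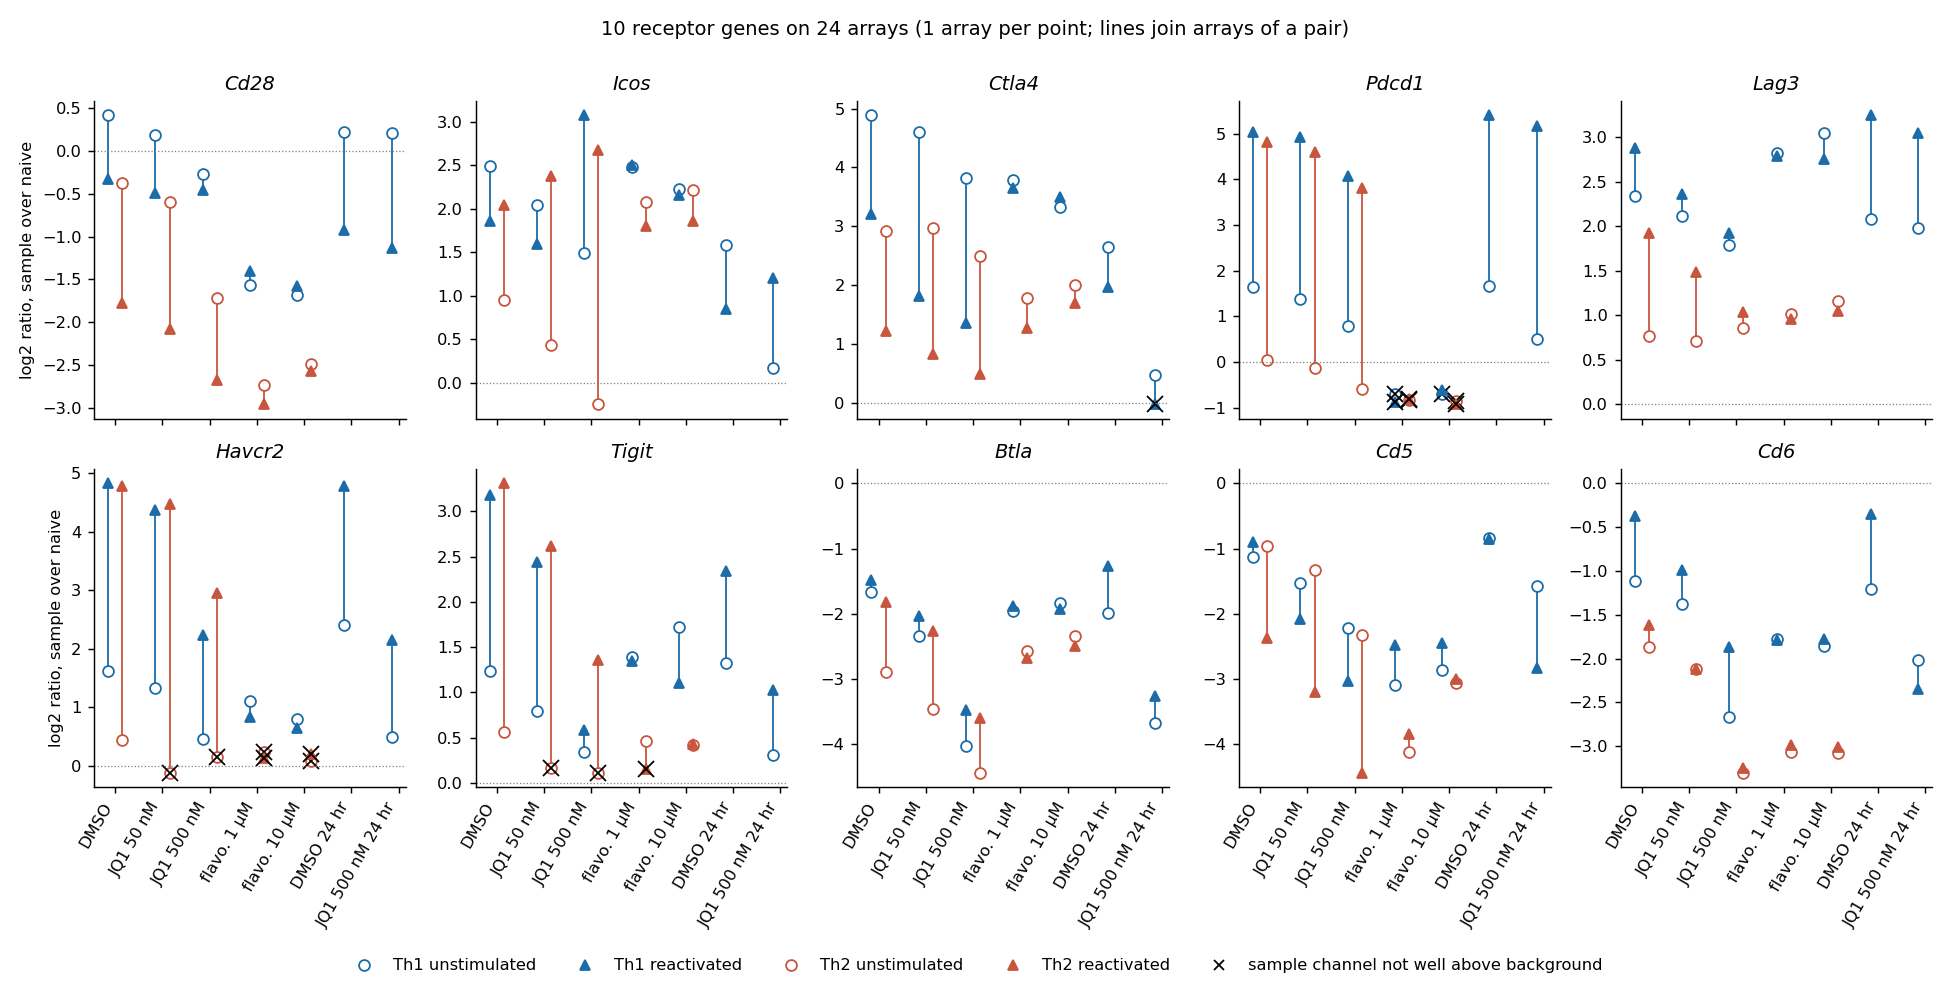
Log2 ratio of each receptor gene over naive cells (vertical axis) on each of 24 arrays, by treatment (horizontal axis), with Th1 cells in blue, Th2 cells in red, open circles for unstimulated and triangles for reactivated cells; a black cross marks an array on which the sample channel was not well above background. Pdcd1 reaches 5.41 in reactivated cells and lies at or below -0.61 on all 8 flavopiridol arrays, whereas Icos under 500 nM JQ1 is higher in reactivated than in unstimulated cells of both types.

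Resting effector cells already differed from naive cells in most of these receptors. On the 3 unstimulated DMSO arrays, 9 of the 10 genes passed the test against naive cells, 6 higher and 3 lower, where 53.4% of the 11771 genes tested passed in either direction, 31.1% higher and 22.3% lower. The median change of the receptors was 1.08, against 0.08 over all genes. As naive RNA was the common reference, this test leaves out the spread of naive cells. Markers of cell types differed as well, with 4 of 4 T cell markers (median -0.77) and 5 of 5 naive T cell markers (-1.38) lower and 3 of 3 B cell markers tested higher (1.84). Of regulatory T cell markers 1 of 2 tested was higher (0.55), as was 1 of 2 dendritic cell markers (0.52). Of CD8 markers the 1 tested was lower (-1.10), as was 1 of 2 myeloid markers (-0.54). Their part in the difference of the receptors was not tested.

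Among the costimulators, Icos lay at 2.49 in Th1 cells at 6 hr, 1.59 in Th1 cells at 24 hr and 0.95 in Th2 cells, above naive cells on all 3 arrays (1.67 ± 0.29, SE, adjusted p = 0.00676, limma). Cd28 lay at 0.42, 0.22 and -0.38 on the same arrays, on both sides of the naive level (adjusted p = 0.71), and turned to -0.59 with adjusted p = 0.025 where arrays were centred on their median in place of loess. By the measured ratios Ctla4 stood highest above naive cells, at 4.89, 2.65 and 2.92 (3.49 ± 0.44, adjusted p = 0.00251). Its naive channel was dim, with a mean log2 intensity of 6.21, although well above background on all 3 arrays.

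Of the other inhibitory receptors, Lag3 lay at 2.34, 2.08 and 0.77 (1.73 ± 0.32, adjusted p = 0.0077), and Pdcd1 at 1.65, 1.66 and 0.05 (1.12 ± 0.34, adjusted p = 0.0404). For both the Th2 array was the lowest, and Pdcd1 there was at the naive level. The naive channel of Lag3 was above background on only 2 of the 3 arrays, with a mean log2 intensity of 6.19. Havcr2, at 1.63, 2.41 and 0.44, and Tigit, at 1.24, 1.33 and 0.56, were not well above background in naive cells on these arrays, so that only bounds hold, at least 2.75-fold (adjusted p = 0.02) and at least 2.06-fold (adjusted p = 0.00669). The calls of Pdcd1 and Havcr2 were lost without either Th1 array and without the filter on dim probes, with adjusted p from 0.0559 to 0.19 in those fits, and that of Lag3 without the 24 hr Th1 array (adjusted p = 0.054). Pdcd1 also lost its call with median centring (0.65, adjusted p = 0.0966) and with the ratio of the scanner software (1.17, adjusted p = 0.0648).

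Btla, the receptor for HVEM, went the other way, at -1.67, -1.99 and -2.90 (-2.19 ± 0.25, adjusted p = 0.00185). Cd6, at -1.11, -1.21 and -1.86 (-1.39 ± 0.18, adjusted p = 0.00257), and Cd5, at -1.12, -0.84 and -0.96 (-0.97 ± 0.12, adjusted p = 0.00214), were lower too. These 3 receptors were below the naive level on all 24 arrays.

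Reactivation raised Pdcd1 and Havcr2 more than any other of these genes, and lowered Ctla4 and Cd28. Of the 10 genes, 8 passed the test over the 3 DMSO pairs, 6 higher and 2 lower, beside 50.9% of 12530 genes, 21.9% higher and 29% lower. The median of the receptors was 0.64 and that of all genes -0.05. Of the marker lists, 4 of 4 T cell markers (median -0.84) and 5 of 5 naive T cell markers (-1.93) were lower after reactivation, 1 of 3 regulatory T cell markers was higher, Nrp1 (2.14 ± 0.20, adjusted p = 0.000498), and 1 of 5 B cell markers was higher and 1 lower. Their part in the change of the receptors was not tested.

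On the reactivated DMSO arrays Pdcd1 reached 5.04 in Th1 cells at 6 hr, 5.41 in Th1 cells at 24 hr and 4.83 in Th2 cells. It was 3.39 to 4.78 above the paired unstimulated arrays (3.97 ± 0.26, adjusted p = 0.000233), and the groups did not overlap. The Th2 array, lowest when unstimulated, made up its distance from Th1 cells almost in full. Havcr2, which encodes TIM-3, reached 4.82, 4.78 and 4.78 (change 3.30 ± 0.34, adjusted p = 0.000672). The 3 reactivated arrays lay within 0.05 of each other after unstimulated values of 1.63, 2.41 and 0.44. Its reference channel was not flat, however, spanning 1.02 on the log2 scale over the 24 arrays against 0.29 to 0.56 for the other receptors but Tigit, and with the log ratio of the scanner software the change was 1.32 with adjusted p = 0.147. Tigit rose to 3.18, 2.34 and 3.31 (1.90 ± 0.31, adjusted p = 0.00312), above every unstimulated array.

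Lag3 rose less, to 2.88, 3.25 and 1.93 (0.95 ± 0.17, adjusted p = 0.00421), and reactivated Th2 cells stayed below unstimulated Th1 cells. Btla moved to -1.48, -1.27 and -1.82 (0.66 ± 0.19, adjusted p = 0.0255), still below the naive level, and Cd6 to -0.37, -0.35 and -1.62 (0.61 ± 0.16, adjusted p = 0.0184). Both small changes lost their call when arrays of single pairs were left out, Btla without either array of the 24 hr Th1 or of the Th2 pair (adjusted p 0.0815 to 0.097) and Cd6 without either array of the 6 hr or the 24 hr Th1 pair (0.0864 to 0.109). In the fit over all 12 pairs, drugs included, Cd6 changed by 0.25 with adjusted p = 0.0536.

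Ctla4 fell in every DMSO pair, to 3.22, 1.97 and 1.22 (change -1.35 ± 0.22, adjusted p = 0.00336). Cd28 fell as well, to -0.33, -0.92 and -1.77 (-1.09 ± 0.16, adjusted p = 0.00214). For both genes the groups overlapped, with reactivated Th1 cells at 6 hr above the unstimulated Th2 array. Icos, the other costimulator, did not move in one direction. It was lower after reactivation in Th1 cells, 1.87 against 2.49 at 6 hr and 0.84 against 1.59 at 24 hr, and higher in Th2 cells, 2.04 against 0.95, so that the fit over the 3 pairs gave -0.09 ± 0.35 (adjusted p = 0.854). Without either Th2 array the change was -0.68 (adjusted p = 0.0107 or 0.0109). Cd5 was level in Th1 cells, with changes of 0.23 and -0.02, and lower by 1.42 in Th2 cells, at -2.38 against -0.96 (fit -0.40 ± 0.31, adjusted p = 0.33). The labels leave the time of the Th2 DMSO arrays unclear, as 6 or 24 hr, and the Th1 values above are of both times. Whether the change with reactivation differed between cell types was not tested.

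**Figure D2:**
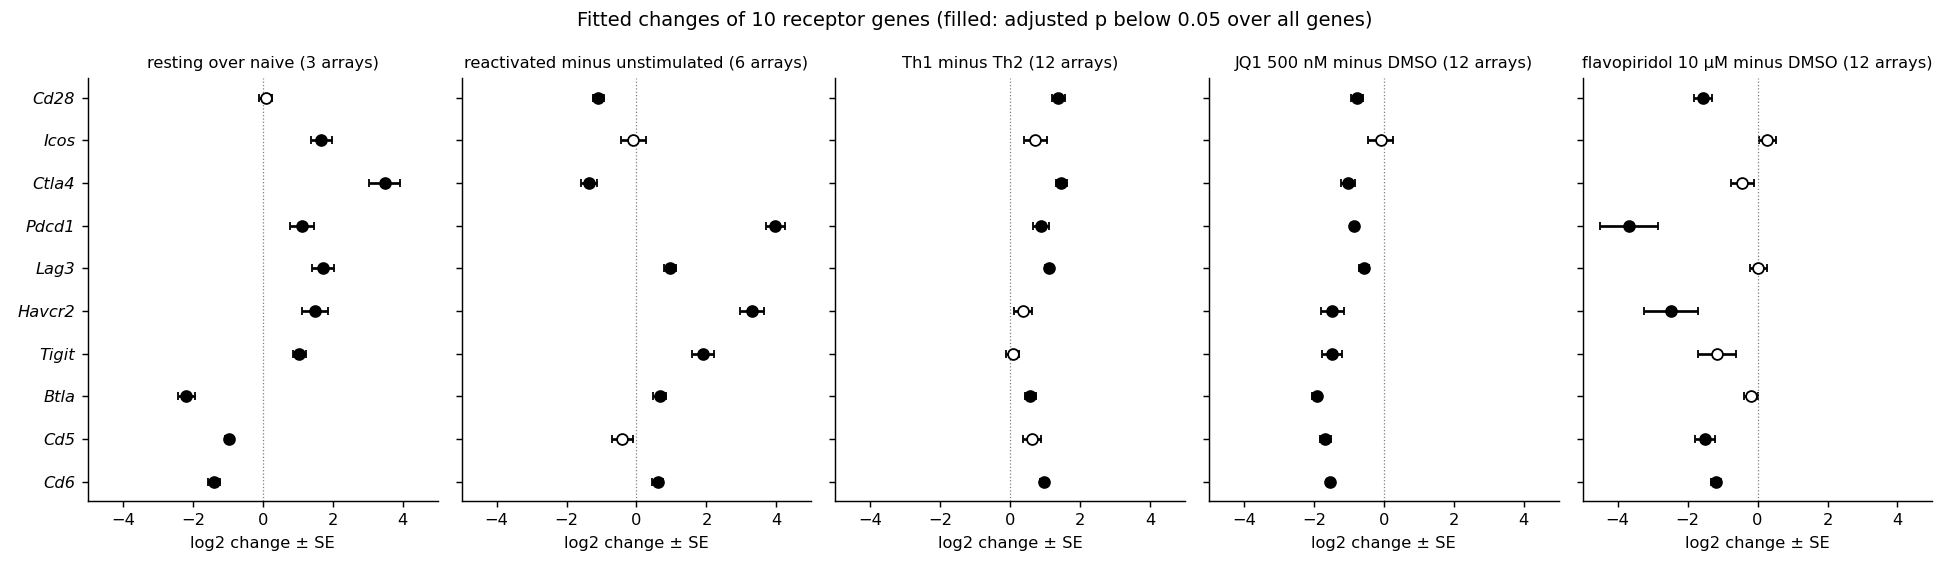
Fitted log2 changes (horizontal axis, ± SE) of the 10 receptor genes (vertical axis) in 5 comparisons, with filled circles for genes at an adjusted p below 0.05 over all genes tested. Reactivation shows 6 filled circles to the right and 2 to the left of 0, and 500 nM JQ1 shows 9 to the left.

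JQ1 at 500 nM lowered nearly the whole group. Over the 4 contexts, Th1 and Th2 cells, unstimulated and reactivated, 9 of the 10 genes were lower and none higher, beside 47.6% of 12911 genes called, 29.9% lower and 17.7% higher. In the Th2 contexts the time of the DMSO arrays is unclear, so drug and time cannot be told apart there. The median change of the receptors was -1.24, and that of all genes -0.07. Of the 40 values of gene and context, 37 were below DMSO at 500 nM (median -1.09), and 38 were at 50 nM (median -0.39). At the lower dose no receptor passed the test in limma (lowest adjusted p = 0.0822), as 0.341% of 12911 genes did, while 5 receptors and 1701 genes had an unadjusted p below 0.05. Markers of cell types moved with 500 nM JQ1 as well, and 4 of 4 T cell markers (median -0.34), 4 of 5 B cell (-0.78), 4 of 5 naive T cell (-0.77), 2 of 2 CD8 (-0.43) and 2 of 3 regulatory T cell markers (-0.62) were lower. Of dendritic cell markers 1 of 3 was lower (-0.19), and of myeloid markers 1 of 2 tested was higher (0.16). Their part in the change of the receptors was not tested.

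Btla fell furthest. Under 500 nM JQ1 it lay at -4.04 and -3.48 in unstimulated and reactivated Th1 cells at 6 hr and at -4.44 and -3.60 in Th2 cells, below every DMSO array (-1.92 ± 0.12, adjusted p = 2.9e-06). The changes at 50 nM were -0.45 to -0.67 in the 4 contexts. Cd5 lay at -2.23 and -3.03 in Th1 and at -2.33 and -4.44 in Th2 cells (-1.67 ± 0.16, adjusted p = 2.33e-05), and Cd6 at -2.67, -1.87, -3.30 and -3.25 in the same order (-1.53 ± 0.09, adjusted p = 1.33e-06). For these 3 genes all 4 contexts were lower at 500 than at 50 nM, and their changes in the 24 hr Th1 pairs were -0.74 to -1.99.

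Among the receptors induced by reactivation, Havcr2 fell to 2.24 in reactivated Th1 cells and 2.94 in reactivated Th2 cells, from 4.82 and 4.78 with DMSO (-1.47 ± 0.32 over the 4 contexts, adjusted p = 0.00338). Tigit fell to 0.59 and 1.36, from 3.18 and 3.31 (-1.47 ± 0.29, adjusted p = 0.00183). In unstimulated Th2 cells neither gene was well above background under JQ1. Pdcd1 fell by 0.65 to 1.01 in the 4 contexts (-0.87 ± 0.08, adjusted p = 2.06e-05), and stayed at 4.09 and 3.82 in reactivated cells. In the 24 hr Th1 pairs its changes were -1.16 in unstimulated and -0.23 in reactivated cells. Lag3 was the least lowered of the called genes (-0.58 ± 0.14, adjusted p = 0.00741). It was at 0.09 above DMSO in unstimulated Th2 cells, and with the ratio of the scanner software its change was 0.28 (adjusted p = 0.215).

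Ctla4 fell by 1.07 and 1.85 in Th1 and by 0.43 and 0.73 in Th2 cells (-1.02 ± 0.21, adjusted p = 0.00219). In the Th1 pairs at 24 hr, which that fit did not use, it went from 2.65 to 0.47 in unstimulated cells, and to -0.02, not well above background, in reactivated cells, at least 3.63-fold below DMSO. Cd28 fell by 0.13 to 1.34 (-0.76 ± 0.16, adjusted p = 0.00331), with the larger changes in Th2 cells. Restricted to Th1 cells, its change was -0.41 (adjusted p = 0.138), and over the 4 Th1 pairs at 6 and 24 hr, each on 1 slide, 7 of the 10 genes were called, all lower, beside 34.2% of 12533 genes, 21.1% lower and 13.1% higher, with Cd28 (-0.26, adjusted p = 0.17) and Lag3 (-0.45, adjusted p = 0.0539) no longer among them. The ratio of the scanner software kept 6 calls, without those of Ctla4 (adjusted p = 0.0799) and Havcr2 (adjusted p = 0.235) as well as that of Lag3.

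**Figure D3:**
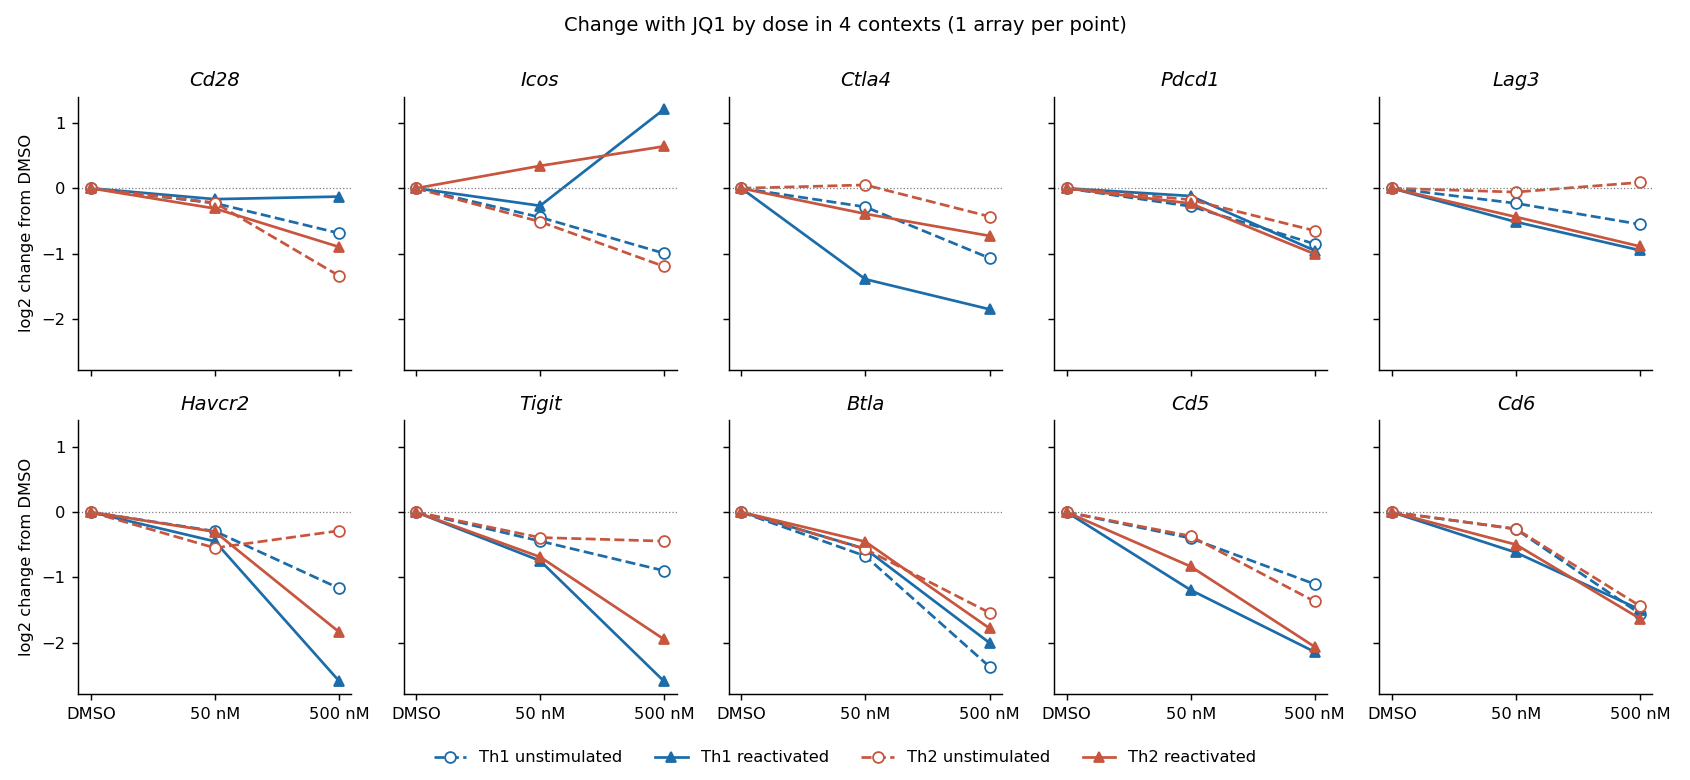
Log2 change from DMSO after loess (vertical axis) at 50 and 500 nM JQ1 (horizontal axis) for each receptor gene in 4 contexts, 1 array per point, with Th1 cells in blue, Th2 cells in red, dashed lines for unstimulated and solid lines for reactivated cells. The JQ1 arrays and the Th1 DMSO arrays are of 6 hr, and the time of the Th2 DMSO arrays is unclear. Btla, Cd5 and Cd6 fall in all 4 contexts, Icos rises to 1.21 and 0.64 in reactivated cells and falls by 1.00 and 1.20 in unstimulated cells, and the Havcr2 and Tigit points of unstimulated Th2 cells under JQ1 are not well above background.

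Icos stood apart, since on the loess scale JQ1 moved it in opposite directions in the 2 states. In unstimulated cells 500 nM JQ1 took it from 2.49 to 1.49 in Th1 and from 0.95 to -0.25 in Th2 cells. In reactivated cells it went from 1.87 to 3.08 in Th1 and from 2.04 to 2.68 in Th2 cells, and 3.08 was the highest Icos value of the 24 arrays. The difference between states was tested with an interaction term and came to 2.02 ± 0.30 (adjusted p = 0.00452), while the change averaged over the states was -0.08 ± 0.36 (adjusted p = 0.867). The 24 hr Th1 pairs, outside that fit, moved likewise, from 1.59 to 0.17 in unstimulated and from 0.84 to 1.20 in reactivated cells, and the dimmer Icos probe gave -1.09 and 0.41 there.

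Of the 10 genes, 4 had a JQ1 effect that differed between states, 1 higher in reactivated cells and 3 lower, where 10.1% of 12911 genes did, 4.5% higher and 5.62% lower. The median of this difference was -0.38 for the receptors and -0.01 for all genes. Tigit (-1.60 ± 0.24, adjusted p = 0.00431), Havcr2 (-1.48 ± 0.35, adjusted p = 0.0281) and Cd5 (-0.87 ± 0.17, adjusted p = 0.0148) were lowered more in reactivated cells. Tigit and Havcr2 were above background on 10 of the 12 arrays of this fit, and under JQ1 not in unstimulated Th2 cells. The sizes for these genes thus hold for the measured ratios and not for an exact level there. The Havcr2 call was lost in 6 of the fits that left out 1 array, with adjusted p from 0.052 to 0.126, and without background correction (-0.71, adjusted p = 0.297), and its sign turned with the ratio of the scanner software (2.38, adjusted p = 0.121). Cd5 lost its call without the unstimulated Th1 DMSO, reactivated Th1 DMSO or unstimulated Th2 DMSO array (adjusted p 0.0544 to 0.0685), and the count was then 2. Spike-in spots moved with the same term, since a shift of each array by them lowered the interaction of all genes to a median of -1.21. On that scale 8 receptors were called, all lower in reactivated cells, as were 83.3% of all genes, so that count is at the background, and Icos was at 0.83 (adjusted p = 0.0634). After loess the spike-in spots lay at -0.54 (Th1 at 6 hr) and -0.84 (Th2) on the reactivated DMSO arrays. They lay at 0.91 and 0.05 with 500 nM JQ1, so the shift turned the rise of Icos on these arrays into a fall.

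Flavopiridol left the receptors at values that differed little with reactivation and, with the exception of Cd5 in Th2 cells, with dose. At 10 µM, 5 of the 10 genes were lower than with DMSO and none higher, beside 48.9% of 12432 genes called, 33.5% lower and 15.4% higher. The median change was -1.17 for the receptors and -0.22 for all genes. Fewer probes were above background here than with DMSO, and a shift of each array by its spike-in spots put the median of all genes at -1.35. On that scale all 10 receptors were lower, and so were 79.4% of all genes. With loess, 4 of 5 B cell markers (median -1.21) were lower, and 2 of 4 T cell markers (0.52) and 1 of 2 CD8 markers (0.80) were higher. Of 5 naive T cell markers Ccr7 was lower (-4.21 ± 0.76, adjusted p = 0.00201), of 3 myeloid markers tested Csf1r was higher (2.02 ± 0.18, adjusted p = 6.03e-05) and Itgam lower (-2.21 ± 0.29, adjusted p = 0.000411), and of 2 dendritic cell markers tested Flt3 was lower (-0.96 ± 0.21, adjusted p = 0.00548). Of 3 regulatory T cell markers Foxp3 was higher (1.06 ± 0.14, adjusted p = 0.000421) and Nrp1 lower (-1.46 ± 0.44, adjusted p = 0.0222). Their part in the change of the receptors was not tested.

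Pdcd1 had the largest change of the measured ratio. On the 8 flavopiridol arrays it ranged from -0.93 to -0.61 with a median of -0.82, below all 16 other arrays, of which the lowest was at -0.60, and it was well above background on 1 of the 8, reactivated Th1 cells at 10 µM. The fit gave -3.67 ± 0.84 (adjusted p = 0.00661), and in reactivated Th2 cells the ratio changed by -5.75 at 10 µM. In the sample channel taken alone, without the naive channel, that fall was at least 55.9-fold. Havcr2 ranged from 0.08 to 1.11 with a median of 0.45 (-2.48 ± 0.77, adjusted p = 0.0264), and its ratio changed by -4.58 in reactivated Th2 cells at 10 µM. In the sample channel taken alone that fall was at least 39.8-fold, with the log2 intensity of Havcr2 in the naive channel at 6.73 on the DMSO array and 5.97 on the flavopiridol array. Its call did not hold in the fit of the 8 arrays of DMSO and 10 µM (adjusted p = 0.0583), with slide as a random block (adjusted p = 0.111) or in 4 fits that left out 1 reactivated array (0.0649 to 0.0873).

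Cd28 lay between -2.96 and -1.41 (median -2.08) on the flavopiridol arrays, below all 6 DMSO arrays but that of reactivated Th2 cells at -1.77, and its change was -1.56 ± 0.25 (adjusted p = 0.000985). Cd5 lay between -4.13 and -2.45 (median -3.04), below all 6 DMSO arrays (-1.51 ± 0.28, adjusted p = 0.00253). Cd6 lay between -3.08 and -1.78 by its brighter probe (-1.19 ± 0.15, adjusted p = 0.0003), but by its dimmer probe the change was 0.22 (adjusted p = 0.247).

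Ctla4 (-0.43 ± 0.33, adjusted p = 0.309), Icos (0.28 ± 0.25, adjusted p = 0.377), Lag3 (0.03 ± 0.25, adjusted p = 0.938), Tigit (-1.15 ± 0.54, adjusted p = 0.109) and Btla (-0.19 ± 0.20, adjusted p = 0.472) did not pass the test. Icos stayed between 1.80 and 2.50 on all 8 arrays, beside 0.84 to 2.49 with DMSO, and Lag3 between 0.96 and 3.05, beside 0.77 to 3.25. Ctla4 lay between 1.28 and 3.78, Tigit between 0.16 and 1.72 and Btla between -2.69 and -1.83, all overlapping their DMSO arrays. Icos and Lag3 depended on the scale, since spike-in centring gave -1.19 for Icos and -1.01 for Lag3, each with an adjusted p below 0.05. With loess the dimmer Icos probe gave 1.05 (adjusted p = 0.00359), and the ratio of the scanner software gave 1.18 for Lag3 (adjusted p = 0.0364). Spike-in and median scaling called Ctla4 (-1.11 to -1.70) and Btla (-1.31 to -2.05) lower, and spike-in scaling Tigit (-1.62 and -2.28). The 10 µM and 1 µM arrays of a context differed by -0.46 to 1.06 over the 40 values, 38 of them within 0.5. The other 2 were those of Cd5 in Th2 cells, 1.06 in unstimulated and 0.84 in reactivated cells, and Cd5 was higher at 10 than at 1 µM in all 4 contexts (0.04 to 1.06).

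**Figure D4:**
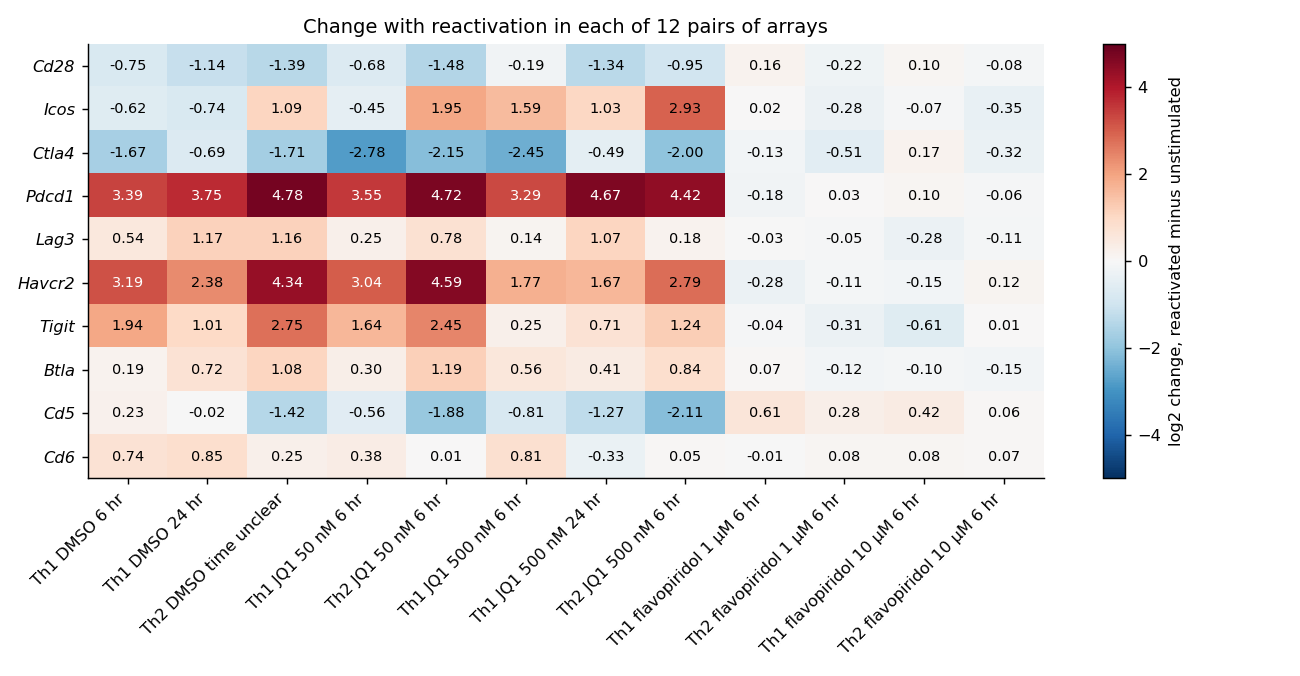
Log2 change of each receptor gene (rows) from the unstimulated to the reactivated array in each of 12 pairs (columns), with red for higher and blue for lower in reactivated cells. Pdcd1 changes by 3.29 to 4.78 in the 8 pairs without flavopiridol, and the 4 flavopiridol pairs stay between -0.61 and 0.61 for every gene.

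The changes with reactivation were small in all flavopiridol pairs, where the 40 values of gene and pair lay between -0.61 and 0.61. Cd5 was higher after reactivation in all 4 of these pairs, by 0.06 to 0.61. As a difference in the flavopiridol effect between states, 5 of the 10 genes passed the test, 2 higher and 3 lower, beside 15.8% of 12432 genes, 8.9% higher and 6.93% lower. The median of the receptors was -0.60 and that of all genes 0.06. Of the 6 genes that rose on reactivation with DMSO, 3 were lowered more in reactivated cells, with differences of -4.06 ± 0.49 for Pdcd1 (adjusted p = 0.00437), -3.79 ± 0.29 for Havcr2 (adjusted p = 0.00168) and -2.65 ± 0.43 for Tigit (adjusted p = 0.00967). On the 8 flavopiridol arrays of this fit Pdcd1 was above background on 1 and Havcr2 on 4, so that the sizes for these genes hold for the measured ratios and not for an exact level under the drug. The Tigit call was lost without the unstimulated Th1 array or either Th2 array at 10 µM (adjusted p 0.051 to 0.0642). Lag3, Btla and Cd6 did not pass (adjusted p = 0.0722, 0.139 and 0.306). Both genes that fell with DMSO had the opposite sign, Ctla4 at 1.61 ± 0.32 (adjusted p = 0.0179) and Cd28 at 1.08 ± 0.27 (adjusted p = 0.0373). Ctla4 changed with reactivation by -1.67 in Th1 cells at 6 hr and -1.71 in Th2 cells with DMSO, and by 0.17 and -0.32 at 10 µM. The Ctla4 call was lost without the unstimulated Th1 DMSO array or without either Th1 or the reactivated Th2 array at 10 µM (adjusted p 0.0501 to 0.105). Of all alternatives, Ctla4 lost its call in 8 of 20 and Tigit in 7 of 19. The Cd28 call was lost when any of the 8 arrays but the reactivated Th1 DMSO array was left out (adjusted p 0.0552 to 0.178). The test shares the 6 hr Th1 and the Th2 DMSO pair with that of reactivation, so the 2 sets of calls are not independent. Counts of calls depended on single arrays here, at 2 without the unstimulated Th1 or the reactivated Th2 array at 10 µM and 3 without the reactivated Th1 or the unstimulated Th2 array at 10 µM, and no member was called with the ratio of the scanner software.

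Set directly against each other in the same 4 contexts, the drugs at their higher doses differed in 3 of the 10 genes, 2 higher with JQ1 and 1 lower, beside 49.4% of 11901 genes, 30.7% higher and 18.7% lower. The median was -0.33 for the receptors and 0.16 for all genes. In each context the arrays of the drugs lay on different slides, so drug and slide cannot be told apart here. Pdcd1 was higher with JQ1 than with flavopiridol (2.80 ± 0.81, adjusted p = 0.0306), at 4.09 against -0.61 in reactivated Th1 cells and 3.82 against -0.93 in reactivated Th2 cells. Of these 4 contexts, Pdcd1 was above background with flavopiridol in reactivated Th1 cells only. In the others only bounds hold, and in the sample channel taken alone it was at least 23.8-fold higher with JQ1 in reactivated Th2 cells, at least 3.26-fold in unstimulated Th1 and at least 1.11-fold in unstimulated Th2 cells. Cd28 was also higher with JQ1 (0.80 ± 0.27, adjusted p = 0.0497), and Btla lower (-1.74 ± 0.23, adjusted p = 0.00201), by 1.10 to 2.21 in the 4 contexts. Icos differed by 0.92 and 0.82 in reactivated and by -0.74 and -2.47 in unstimulated Th1 and Th2 cells (-0.37 ± 0.58, adjusted p = 0.624). Only the Btla call remained without the reactivated Th1 array of either drug or without the filter on dim probes. The Pdcd1 call was lost without any of the 4 reactivated arrays (2.16 or 2.17, adjusted p 0.0783 to 0.1), that of Cd28 without any array but those of reactivated Th2 cells (0.113 to 0.167), and that of Btla with median or spike-in scaling (-0.47 to -1.18, adjusted p 0.0715 to 0.421).

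Between the lineages, 6 receptors were higher in Th1 than in Th2 cells and none lower over 6 pairs of like treatment with DMSO or JQ1, beside 28.6% of 12911 genes called, 14.5% higher in Th1 and 14.1% lower. The median difference was 0.80 for the receptors and -0.01 for all genes. The time of the Th2 DMSO arrays is unclear, so lineage and time cannot be told apart in the DMSO pairs, nor lineage and slide in the 4 JQ1 pairs. Ctla4 was 0.88 to 2.00 higher in Th1 cells in the 6 pairs (1.47 ± 0.16, adjusted p = 0.00047) and Cd28 0.79 to 2.21 (1.38 ± 0.18, adjusted p = 0.00101). Lag3 was 0.88 to 1.57 higher (1.10 ± 0.11, adjusted p = 0.000334), and Cd6 0.63 to 1.38 (0.98 ± 0.11, adjusted p = 0.000581).

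Pdcd1 was higher by 1.40 to 1.60 in the unstimulated pairs and by 0.21 to 0.33 in the reactivated pairs (0.89 ± 0.22, adjusted p = 0.0185), and Btla by 0.41 to 1.23 and 0.12 to 0.35 (0.58 ± 0.16, adjusted p = 0.0271). Icos showed 1.54 to 1.74 in unstimulated pairs, but -0.78, -0.17 and 0.40 in reactivated pairs with 50 nM JQ1, DMSO and 500 nM JQ1 (0.72 ± 0.34, adjusted p = 0.148). Cd5 was reversed in this respect, at -0.19 to 0.11 unstimulated and 1.13 to 1.49 reactivated (0.63 ± 0.25, adjusted p = 0.0996). Havcr2 (0.36 ± 0.26, adjusted p = 0.337) and Tigit (0.07 ± 0.18, adjusted p = 0.793) did not pass the test. Whether these differences between states hold was not tested.

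The Btla call was lost without any of the 6 unstimulated arrays (adjusted p 0.0522 to 0.0737) and that of Pdcd1 without any of the 4 unstimulated JQ1 arrays (0.054 to 0.0559). Btla was also not called with median or spike-in scaling (0.45 to 0.47, adjusted p 0.105 to 0.223). The 2 DMSO pairs alone, which lie on 1 slide, called Ctla4 and Lag3, both higher in Th1 cells, where 2.33% of 11965 genes were called in either direction. These pairs used the Th1 arrays of 6 hr. On the unstimulated Th1 DMSO array of 24 hr, on another slide, Ctla4 was below the Th2 array, at 2.65 against 2.92. In reactivated cells Ctla4 was above it, at 1.97 against 1.22. Lag3 was above the Th2 array in both states, at 2.08 against 0.77 and 3.25 against 1.93. In unstimulated DMSO cells the direction for Ctla4 thus depended on the Th1 array used. Markers of B cells, which carry BTLA and in part CD5, moved with the comparison of lineages. All 5 were well above background on both Th2 DMSO arrays and 3 to 4 on the Th1 DMSO arrays, and their summed log2 level was 11.8 to 12.2 in Th2 against 10.1 to 10.5 in Th1 cells, 11.1 to 11.9 against 9.25 to 10.2 with JQ1, and 10.2 to 10.6 against at most 9.21 with flavopiridol. Among other lists, 1 of 2 CD8 T cell markers (Cd8a, 0.81 ± 0.15, adjusted p = 0.00511) and 2 of 3 dendritic cell markers (Flt3, 0.34, and Zbtb46, 0.36) were higher in Th1 cells, with summed levels of 8.06 to 8.86 against 7.45 to 7.89 for CD8 and of 8.06 to 8.60 against 8.15 to 8.99 for dendritic markers with DMSO. The part of these markers in the results was not tested. The regulatory T cell markers, summed, spanned 8.87 to 9.85 in Th1 and 8.81 to 9.93 in Th2 DMSO cells, which overlap, but single markers differed both ways, with Ikzf2 higher in Th1 cells (0.68 ± 0.17, adjusted p = 0.0203) and Nrp1 lower (adjusted p = 0.00201).

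No receptor passed the test of a drug effect that differed between Th1 and Th2 cells, for either drug. On simulated data this test recovered 0% of 2-fold and 36% of 4-fold differences for flavopiridol, and 34% and 91% for JQ1. A missing call thus does not show that the effects were alike. For JQ1, 0 of 12911 genes were called and 907 had an unadjusted p below 0.05, among them 3 receptors, Cd28 (0.71 ± 0.25), Ctla4 (-0.88 ± 0.34) and Btla (-0.52 ± 0.19), with adjusted p from 0.599 to 0.654. For flavopiridol, 0.0161% of 12432 genes were called, 1609 had an unadjusted p below 0.05 and no receptor did. Under flavopiridol the 4 Th1 arrays were above the 4 Th2 arrays without overlap for 7 of the 10 genes, as for 23.3% of the 12432 genes, and the reverse held for none of the 10 and for 19.5% of all genes. These were Cd28 (-1.68 to -1.41 against -2.96 to -2.49), Ctla4 (3.32 to 3.78 against 1.28 to 2.01), Lag3 (2.76 to 3.05 against 0.96 to 1.16), Cd6 (-1.86 to -1.78 against -3.08 to -2.98) and Btla (-1.96 to -1.83 against -2.69 to -2.35), and also Havcr2 and Tigit, which had no lineage call over the pairs without flavopiridol. Havcr2 was above background on the 4 Th1 arrays and on none of the 4 Th2 arrays, so that only bounds hold, and in the sample channel taken alone it was at least 1.17-fold to at least 1.72-fold higher in Th1 cells in the 4 pairs. Tigit was above background on 4 and on 3 of these arrays. The naive channel of both genes was not above background on any of the 8. Those arrays lie on different slides for Th1 and for Th2 cells, so lineage and slide cannot be told apart there.

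Time could be compared in Th1 cells, with 1 array a condition and no test. Ctla4 was lower at 24 than at 6 hr, by 2.23 in unstimulated and 1.25 in reactivated DMSO cells and by 3.35 in unstimulated cells with JQ1. In reactivated cells with JQ1 it was not well above background at 24 hr, and in the sample channel taken alone it was at least 2.38-fold lower than at 6 hr. Icos was lower too, by 0.90 and 1.02 with DMSO and by 1.32 and 1.87 with JQ1. Pdcd1 differed by 0.01 and 0.37 with DMSO and by -0.29 and 1.09 with JQ1, and Lag3 by -0.26 and 0.37 and by 0.19 and 1.12. The values of the other 6 genes lay between -0.84 and 0.78. These pairs lie on different slides, so time and slide cannot be told apart.

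**Figure D5:**
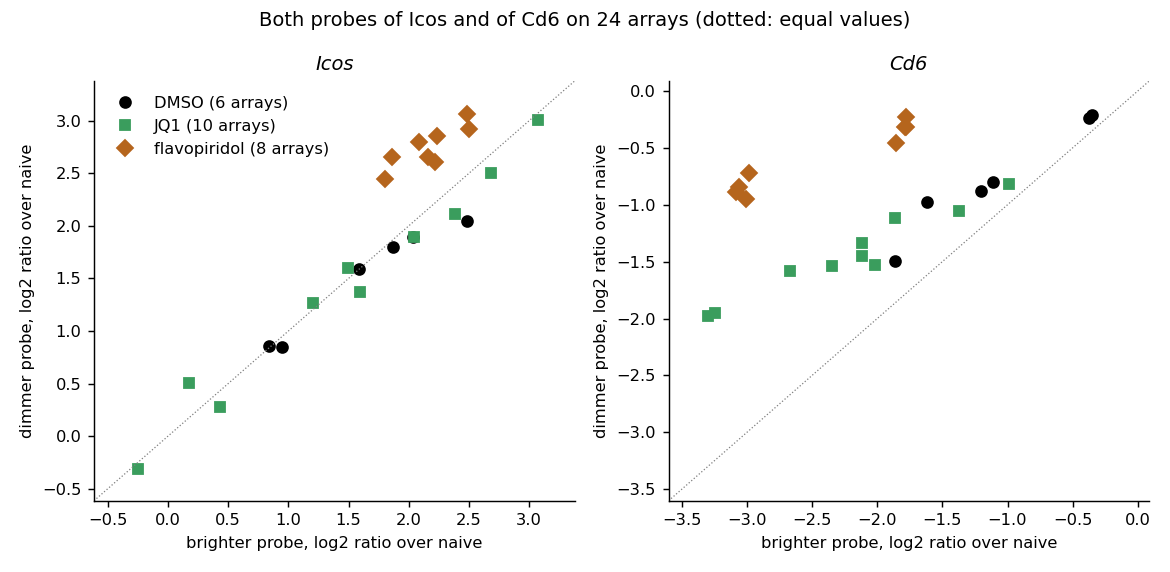
Log2 ratio over naive cells by the brighter (horizontal axis) and the dimmer probe (vertical axis) of Icos and Cd6 on 24 arrays, by treatment, with a dotted line where both are equal. The flavopiridol arrays (brown diamonds) lie apart from the trend of the other arrays, higher by the dimmer probe in both panels, and for Cd6 they lie at -0.95 to -0.23 by the dimmer probe against -3.08 to -1.78 by the brighter.

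Both probes of Icos and of Cd6 could be set beside each other. The Icos probes correlated at r = 0.925 over the 24 arrays and r = 0.985 over the 16 without flavopiridol. For Cd6 the values were 0.570 and 0.971. In each flavopiridol context at 10 µM the brighter Cd6 probe was below DMSO, by 0.74 to 1.40, and the dimmer probe lay between -0.08 and 0.61. The direction of Cd6 under flavopiridol thus depended on the probe, while JQ1 lowered it by both, and probe sequences were not used here. These r, like those that follow, are descriptions over arrays that share a reference and slides.

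Among the receptors, Pdcd1 and Havcr2 were most alike over the 24 arrays (r = 0.914), followed by Havcr2 and Tigit (0.902) and by Cd28 and Cd5 (0.832). Icos and Cd5 were least alike (-0.461), and Ctla4 ran against Pdcd1 (-0.400). Of all 11814 genes above background on at least 12 arrays, those most like Pdcd1 were Eif1a (0.985), Fam83g (0.984) and Bcl2a1d (0.982). Those most like Havcr2 were Bcl2l1 (0.963), Cul5 (0.963) and Pdcd1lg2 (0.960), the last of which encodes PD-L2, a ligand of PD-1. Lag3 was most like Jaml (0.943), Nkg7 (0.913) and Tbkbp1 (0.909), Icos like Lilrb4a (0.790), Il2ra (0.781), the interleukin-2 receptor alpha chain, and Chmp4b (0.758), and Tigit like Fam71b (0.948), Armc6 (0.929) and Pabpn1 (0.921). For Ctla4 they were Eipr1 (0.921), Pon2 (0.904) and Tceal9 (0.872), for Btla Serpinb9 (0.924), Tmed10 (0.907) and Syngr2 (0.905), and for Cd28 Nt5c (0.921), Anxa7 (0.919) and Rtf2 (0.908). Cd5 was most like Myo1g (0.935), Cyb5d2 (0.912) and Anxa7 (0.902), and Cd6 like Slc39a1 (0.901), Itpripl2 (0.901) and Cxcr3 (0.886).

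Other members of the pathway were read from 3 lists, of further receptors, of ligands and of signalling partners. Of 17 further receptors tested, reactivation raised 7 and lowered 4, JQ1 raised none and lowered 13, and flavopiridol raised 3 and lowered 6, with medians of 0.08, -0.66 and -0.37. Over all genes the shares called were 50.9%, 47.6% and 48.9%, so the flavopiridol count is near the background. On reactivation Crtam (5.29 ± 0.19, adjusted p = 9.91e-05), a receptor of activated T cells, and Slamf1 (2.68 ± 0.26, adjusted p = 0.000559), of the SLAM family, changed most. JQ1 lowered Cd96 (-1.57 ± 0.18, adjusted p = 7.83e-05), which shares PVR as a ligand with Tigit, and Cd2 (-1.26 ± 0.11, adjusted p = 1.05e-05). Flavopiridol lowered Tnfrsf4, the costimulator OX40, by -4.34 ± 0.42 (adjusted p = 9.21e-05) and raised Cd226, the activating counterpart of Tigit, by 1.83 ± 0.31 (adjusted p = 0.00152).

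Ligands of these receptors were read in the same cultures. Of 11 tested, 4 rose and 3 fell on reactivation, 1 rose and 4 fell with JQ1, and 4 rose and 4 fell with flavopiridol, with medians of -0.15, -0.20 and 0.49. The JQ1 count is near the 47.6% of all genes called, and the others stand beside 50.9% and 48.9%. Pdcd1lg2 rose by 4.10 ± 0.46 on reactivation (adjusted p = 0.000883) and fell with JQ1 (-1.54 ± 0.19, adjusted p = 0.000109) and with flavopiridol (-3.51 ± 0.81, adjusted p = 0.00689). Alcam, the ligand of CD6, rose by 2.68 ± 0.23 on reactivation (adjusted p = 0.000416) and by 0.69 ± 0.24 with JQ1 (adjusted p = 0.0369), and fell by 2.60 with flavopiridol (adjusted p = 0.00934).

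Of 22 signalling partners, with medians of -0.43 on reactivation, -0.28 with JQ1 and -0.22 with flavopiridol, 5 rose and 11 fell on reactivation, beside 21.9% and 29% of all genes, with the largest changes in Pik3cd, a catalytic subunit of PI3-kinase that acts below CD28 and ICOS (-2.61 ± 0.20, adjusted p = 0.000322), and Ptpn6, the phosphatase SHP-1 (-2.29 ± 0.18, adjusted p = 0.000331). JQ1 raised 1 and lowered 13, beside 17.7% and 29.9% of all genes, led by Lck, the kinase of the T cell receptor (-1.55 ± 0.13, adjusted p = 9.23e-06), and Ptpn6 (-1.41 ± 0.11, adjusted p = 7.88e-06). Flavopiridol raised 1 and lowered 6, beside 15.4% and 33.5% of all genes, with the largest change in the phosphatase gene Ptpn22 (-2.92 ± 0.27, adjusted p = 7.44e-05). Against naive cells, where 31.1% of all genes were higher and 22.3% lower, 15 partners were lower and none higher in resting effector cells, led by the adaptor Trat1 (-1.89 ± 0.30, adjusted p = 0.00508) and Lck (-1.48 ± 0.14, adjusted p = 0.00111). Of the further receptors, 2 were higher than in naive cells and 10 of 16 lower, among them Tnfrsf4 at 3.05 ± 0.35 (adjusted p = 0.00191) and Cd96 at -1.60 ± 0.23 (adjusted p = 0.00368), and of the ligands 4 were higher, led by Lgals3 at 4.86 ± 0.12 (adjusted p = 2.63e-05), and 4 lower.

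Between lineages, 5 of 17 further receptors were higher in Th1 and 5 in Th2 cells, and 6 and 5 of 22 signalling partners, beside 14.5% and 14.1% of all genes. The largest difference among the receptors was that of Crtam (2.13 ± 0.28 higher in Th1, adjusted p = 0.00124), followed by Tnfrsf4 (1.02 ± 0.27, adjusted p = 0.0243). Trat1 was higher in Th2 cells (-1.08 ± 0.13, adjusted p = 0.000783), and Sh2d1a, the adaptor SAP, in Th1 cells (0.74 ± 0.18, adjusted p = 0.0161). Of the ligands 3 were higher in Th1 cells, Pvr, the ligand of TIGIT, by 1.11 ± 0.10 (adjusted p = 0.000263), and Lgals9, a ligand of TIM-3, was higher in Th2 cells (-0.90 ± 0.15, adjusted p = 0.0035).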

How the data were processed

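RNA of each sample (Cy3) and of naive cells (Cy5) had been hybridised to Agilent mouse arrays of 55681 probes, 26437 of them with a gene name, and the authors extracted the spot values with Feature Extraction 10.7.1.1, as the file headers state (grid build mm9). The deposited scanner files hold median intensity and background intensity of both channels, flags for spots well above background, and a log10 ratio computed by the scanner software. Log2 values of the same arrays, deposited by the authors as a further table, served as an alternative. For the results, intensities were background corrected in R 4.3.3 with limma 3.58.1 (normexp, offset 50), flagged outlier and control spots were left out, each array was normalised by loess, repeat spots were averaged and ratios were turned to sample over naive. The intensity levels quoted for single channels were also scaled between arrays (Aquantile). A gene was represented by its brightest probe and tested where its Cy3 signal passed the scanner's background test on 3 or more arrays. Changes were fitted with lmFit and eBayes, with the pair or context of arrays as a block (reactivation over the 3 DMSO pairs, each drug over 12 arrays of both doses and DMSO), two-sided, with Benjamini-Hochberg adjustment over all genes and a threshold of 0.05. The methods of the study name a rank-sum test and, for lineage and drug genes, fold thresholds, and neither was used here. A fall to below background is given as a bound on single-channel signals, the brighter mean against the higher of the dim probe's own signal and the lowest signal among probes well above background. Samples were grouped by their labels, which carry no replicate numbers, so p-values measure the spread between contexts. Genes named beyond the receptors are the called ones with the largest change in each list and the 3 with the highest Pearson r to each receptor, except that 1 such gene is not reported here. The fits were tested on simulated data. Alternatives changed the background correction, normalisation, filter, probe choice, block, dose and arrays. The receptors and gene lists were chosen with earlier results of these data known.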

Additional observations from a re-analysis of the deposited data

Results flagged for a closer look

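In 9 results the effect of a drug differed between reactivated and unstimulated cells by the interaction test (limma, Benjamini-Hochberg adjusted p below 0.05). For flavopiridol at 10 µM the effect in reactivated minus that in unstimulated cells was -4.06 for Pdcd1, -3.79 for Havcr2 and -2.65 for Tigit, where under flavopiridol Pdcd1 was above background on 1 of 8 arrays and Havcr2 on 4 of 8. It was 1.61 for Ctla4 and 1.08 for Cd28. For 500 nM JQ1 the difference was 2.02 for Icos, the only receptor that on the loess scale was raised in reactivated cells and lowered in unstimulated cells of both lineages. It was -1.60 for Tigit, -1.48 for Havcr2 and -0.87 for Cd5, each lowered more in reactivated cells. Under JQ1 Tigit and Havcr2 were not above background in unstimulated Th2 cells. Groups of single arrays could not be searched for a sample far from the others.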

How the results depend on the processing

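Of 2000 values of the 10 genes under alternative settings, 1796 kept their side of the threshold, 150 lost a call, 44 gained one and 10 reversed. Of the 1796, 1651 kept their direction too, and 145, called neither before nor under the alternative, had the opposite sign. Spike-in scaling, by centring or by a shift after loess, moved the median of all genes to -1.64 or -1.35 with flavopiridol, -0.54 or -0.64 with JQ1, -1.03 or -1.21 in the JQ1 interaction with reactivation, 0.20 or 0.23 with reactivation and 1.08 or 0.72 between the drugs. It reversed Icos (-1.19 and -0.84) and Lag3 (-1.01 and -1.10) with flavopiridol and Btla in the JQ1 interaction (-1.04 and -1.13). It gave 10 and 10 calls for flavopiridol, all lower, where 90.7% and 79.4% of all genes were lower, 2 and 2 for its interaction, beside 1.94% and 0.635% called, and 9 and 8 for that of JQ1, beside 77.5% and 83.3%. The ratio of the scanner software reversed Lag3 with JQ1 (0.28) and Havcr2 in the JQ1 interaction (2.38) and left 0 and 1 calls in the flavopiridol and JQ1 interactions. The dimmer probe reversed Cd6 with flavopiridol (0.22), and median centring reversed Cd28 against naive cells (-0.59). Without a block for pair or context, calls fell to 3 for reactivation, 1 for JQ1, 1 for cell type, 2 for the flavopiridol and 0 for the JQ1 interaction. Requiring signal on every array, which tests fewer genes, gave 3 calls for flavopiridol and 2 for its interaction, no filter gave 1 between the drugs, DMSO pairs alone gave 2 for cell type and 50 nM JQ1 gave 0. For other changes the cause was not tested. Leaving out each array in turn gave 6 to 8 calls for reactivation, 4 to 6 for flavopiridol, 9 to 9 for JQ1, 2 to 6 and 2 to 5 for the flavopiridol and JQ1 interactions, 4 to 7 for cell type, 6 to 9 against naive cells, 1 to 3 between the drugs and 0 to 0 for either drug by cell type. Slide as a random block could not be fitted for reactivation, the drug effects by cell type or the naive comparison. Genes near background in naive cells (Havcr2, Tigit, in part Lag3) have compressed ratios.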
